A study of Mus musculus with 6 samples.

Results

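The transcripts of enzymes that make cholesterol, of the SREBP machinery that controls them and of a set of sterol carriers and receptors were compared between WT and SWELL1 KO 3T3-F442A cells. The genes were chosen by symbol, as the rows of the deposited table whose gene names, split at commas, held a listed symbol. Of 30 genes listed (Sc4mol and Msmo1 are names of the same gene), 24 had a row among the 31097 rows of the table. Acat2, Pmvk, Mvd, Srebf1, Npc2 and Soat1 had none and were not analysed here. Cells make cholesterol from acetyl-CoA along the mevalonate pathway, whose intermediates also supply the farnesyl and geranylgeranyl groups that anchor many proteins in membranes. Most of its enzyme genes are switched on by SREBP2, a transcription factor held in the endoplasmic reticulum by the escort protein Scap and the Insig proteins while sterols are plentiful, and released by cleavage in the Golgi when sterols run low. Fat cells, which hold much of the body's free cholesterol, also take up sterol from lipoproteins and pass it to acceptors outside the cell.

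The libraries were made from 3T3-F442A, a mouse line of preadipocytes grown in RPMI with 10% FBS. The 3 WT libraries came from cells with an intact SWELL1 gene (official symbol Lrrc8a), which encodes part of the anion channel that opens when cells swell, and the 3 SWELL1 KO libraries from cells of that line in which CRISPR/Cas9 had been used against it. The comparison asks how these transcripts differ when the gene is targeted. The labels call the libraries of a group biological replicates, do not say whether the KO libraries share a clone, and give the KO sample names alone a mark, D3, that no label explains, so genotype, clone and that mark cannot be told apart. Each p-value therefore covers only how these 6 libraries spread.

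Levels are FPKM, fragments scaled to transcript length and to the number of mapped fragments, so levels of different genes can be compared per length. The unit is inferred, since no label or header names it. Depth estimated from the lowest values lay between 17.2 and 20.8 M fragments for WT libraries and between 18.4 and 26.0 M for KO libraries, and the lowest member value above 0 (Hsd17b7, 2.32 FPKM in KO replicate 1) then stood for 44.3 fragments per kilobase. An exact 0 in this table can be a failed estimate. The row that holds Lrrc8a also holds Nup188 and Phyhd1, at 32.5 to 35.0 FPKM in WT and 27.3 to 28.8 in KO, and does not check the knockout. The numbered clone AC166252.2 held 16.7% to 23.7% of all FPKM in KO libraries and 0% to 2.1% in WT libraries. The line is labelled as adipocyte, and of 8 adipocyte markers Lep was at 0 in all libraries and Adipoq was at 1.26 to 1.87 FPKM in WT and at 0 to 0.0443 in KO. Of all 10515 tested rows 36.7% were called lower in KO (limma, adjusted p under 0.05). Of the 5 adipocyte markers tested 4 fell, among them Fabp4 46.3-fold, Pparg 14.4-fold and Plin1 10.0-fold. Mean KO levels were 0.127 FPKM for Pparg, 0.101 for Plin1 and 0.0148 for Adipoq. The rows of Pparg, Plin1 and Adipoq passed the filter on low values (a mean of 0.5 FPKM or more) only through WT. Their falls were thus favoured in advance. Summed, the 8 stood at 277 to 358 FPKM in WT and 106 to 152 in KO, where nearly all of the KO sum was Lpl (104 to 147 FPKM), which was not called. All 8 preadipocyte and fibroblast markers were called, where 65.2% of all tested rows were called in either direction. Of these 8 markers, 5 were lower (Thy1 2.01-fold) and 3 higher (Pdgfrb 1.42-fold), with sums of 6739 to 7581 FPKM in WT and 6160 to 6216 in KO. The 5 macrophage markers with a row summed to 1.303 to 1.637 FPKM in WT and 0.127 to 0.343 in KO, nearly all of it Lyz2. Csf1r was at 0 throughout. Lyz2 fell 8.83-fold, in a row that also passed the filter only through WT. The 3 hepatocyte markers were at 0 in every library. The 4 endothelial markers summed to 0.456 to 0.659 FPKM in WT and 2.05 to 2.45 in KO, and 3 epithelial markers to 0 to 0.0107 and 1.25 to 1.53 FPKM, with Epcam at 0 throughout. The part of these markers in the results below was not tested. Fewer cells of a type and less RNA per cell cannot be told apart in such bulk RNA.

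Promoters of genes of this pathway are known for binding sites of SREBP beside CCAAT boxes, which bind the factor NF-Y, and GC boxes, which bind Sp1. RefSeq promoter windows (GRCm38.p6, 250 bases before to 50 bases after the transcript start) were matched by symbol for 19 of the 24 genes (not for Fdps, Fdft1, Sqle, Stard4 and Npc1) and searched on both strands, counting overlapping matches. The sterol response element was searched only as the string TCACNCCAC, so sites written otherwise were not counted. That string occurred in 1 of the 24 member windows, that of Hmgcs1, where its first base lies 137 bases before the start. It occurred in 1.24% of all 32851 windows. The CCAAT box occurred in 16 of the 24 member windows (66.7%), against 37.4% of all windows. It was in 13 of the 15 windows of pathway enzymes (86.7%), at least 1 window for each of the 13 enzyme genes matched, and in 3 of the 9 windows of the other members (33.3%), with none for Scap, Abca1 and Lrp1. For genes with a tested row the share of genes with a CCAAT box in any window was 43.8%. GGGCGG occurred in 21 of the 24 member windows (87.5%), against 35.7% of all windows and 64.0% of windows of genes with a tested row. Hmgcs1 is printed for its sterol element, Mvk for its 5 CCAAT matches, and Cyp51 and Insig1 because their transcripts fell most; the last 3 were chosen after their values were seen. Each window is written 5′ to 3′ along the gene, with matches to TCACNCCAC and to CCAAT (or to its reverse complement, where it lies on the other strand) in capitals.
Hmgcs1, chr13:119690101-119690400, plus strand: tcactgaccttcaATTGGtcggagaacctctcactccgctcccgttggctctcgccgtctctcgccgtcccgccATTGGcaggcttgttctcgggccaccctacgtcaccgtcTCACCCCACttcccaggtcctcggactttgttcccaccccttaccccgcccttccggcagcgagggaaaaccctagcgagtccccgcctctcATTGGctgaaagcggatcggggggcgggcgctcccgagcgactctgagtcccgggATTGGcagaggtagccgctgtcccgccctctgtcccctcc
Mvk, chr5:114444019-114444318, plus strand: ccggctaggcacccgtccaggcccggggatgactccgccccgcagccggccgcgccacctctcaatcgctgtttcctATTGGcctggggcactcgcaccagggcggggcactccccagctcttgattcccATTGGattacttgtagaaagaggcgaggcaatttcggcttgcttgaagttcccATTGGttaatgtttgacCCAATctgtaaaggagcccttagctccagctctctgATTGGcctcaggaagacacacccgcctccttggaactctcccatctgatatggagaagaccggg
Cyp51, chr5:4104648-4104947, minus strand: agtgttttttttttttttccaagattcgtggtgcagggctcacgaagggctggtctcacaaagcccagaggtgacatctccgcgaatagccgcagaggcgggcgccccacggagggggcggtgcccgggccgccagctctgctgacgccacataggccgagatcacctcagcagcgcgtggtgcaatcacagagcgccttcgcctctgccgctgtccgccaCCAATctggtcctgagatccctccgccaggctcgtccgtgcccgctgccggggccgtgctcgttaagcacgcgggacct
Insig1, chr5:28071162-28071461, plus strand: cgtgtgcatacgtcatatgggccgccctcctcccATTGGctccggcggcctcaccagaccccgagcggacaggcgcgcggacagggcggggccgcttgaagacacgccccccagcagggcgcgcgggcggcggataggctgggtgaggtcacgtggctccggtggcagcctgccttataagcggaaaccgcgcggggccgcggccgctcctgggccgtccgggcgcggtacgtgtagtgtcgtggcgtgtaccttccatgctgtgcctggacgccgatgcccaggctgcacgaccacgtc
The Hmgcs1 window holds 4 CCAAT matches, all on the other strand, and those of Cyp51 and Insig1 hold 1 each. A match is a string of letters in the window and was not measured as a bound site.

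Of the 24 member rows, all of which passed the filter on low values, 19 fell in SWELL1 KO and 0 rose (limma, adjusted p under 0.05). One of the 19 is the row of Tm7sf2, which also holds Vps51 and Zfpl1, so 18 of the 23 genes with a row of their own fell. Among all 10515 tested rows 36.7% were called lower, 28.5% higher and 65.2% in either direction. With median-ratio scaling 3410 rows were lower and 3419 higher, and with quantile normalization 3379 and 3427, against 3862 and 2998 as deposited, while 18 member rows were lower under either. At an unadjusted p under 0.05 the count of members higher in KO was also 0. The median log2 fold change, KO minus WT on log2(FPKM + 0.5), was -0.85 over the 24 and -0.83 over the 23 with no library at 0, against -0.073 over all tested rows. A called change of -1 or less on that scale was met by 8 of the 24 rows (7 without that of Tm7sf2) and by 9.51% of all tested rows. The KO libraries lay below every WT library in the same 19 rows, against 40.3% of all tested rows. They lay above every WT library in 0 rows, against 31.5% of rows, so the groups stood apart in 19 of 24 rows where 71.8% of all rows did so in either direction. Insig2 was called higher under both other scalings and without KO replicate 3, and Lrp1 under quantile normalization. The 5 not called were Ggps1, Fdft1, Sqle, Insig2 and Lrp1.

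**Figure D1:**
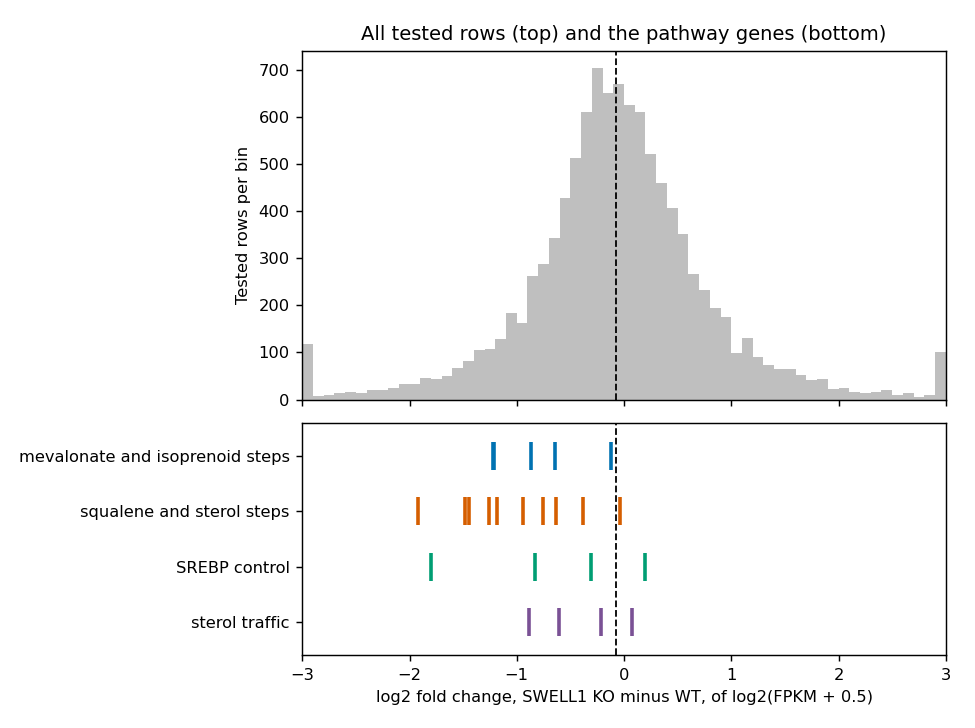
Top, number of tested rows by log2 fold change of log2(FPKM + 0.5), SWELL1 KO minus WT, with rows beyond 3 in either direction added to the end bins; bottom, each of the 23 pathway genes with no library at 0 as a tick, by role. The dashed line is the median of all tested rows (-0.073), and all but 3 of the ticks (Insig2, Lrp1 and Sqle) lie to its left.

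Among the genes of the early pathway, from HMG-CoA to the branched isoprenoids, 4 of 5 fell, against 36.7% of all tested rows. Hmgcs1, the cytosolic HMG-CoA synthase (chromosome 13, 119690379 to 119708260, GRCm38), was at 135, 122 and 140.4 FPKM across WT replicates 1, 2 and 3 and, in the same order, 48.5, 54.0 and 68.7 FPKM across KO. Every KO library lay below every WT library, and KO replicate 3 was the highest of the KO libraries. The mean fell 2.32-fold (log2 fold change -1.22, SE 0.14, adjusted p = 0.000481). Mvk, the kinase that phosphorylates mevalonate, was at 11.0, 11.3 and 10.5 FPKM in WT and 5.32, 5.79 and 6.24 in KO, a 1.89-fold fall with a narrow spread in both groups (log2 fold change -0.87, SE 0.069, adjusted p = 0.000124). Idi1, which interconverts the isoprenoid building blocks, was at 21.5, 22.9 and 24.7 FPKM in WT and 10.8, 15.5 and 18.1 in KO. Its groups did not overlap, but the KO libraries spread widely and the fall was smaller (1.55-fold; log2 fold change -0.65, SE 0.19, adjusted p = 0.0239). The Idi1 call was lost without WT replicate 2 (adjusted p = 0.0617) or WT replicate 3 (adjusted p = 0.0728), in a range of 0.0111 to 0.0728 over all alternatives.

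Fdps makes farnesyl diphosphate, the last intermediate shared by sterols and prenyl groups (chromosome 3, 89093588 to 89101959, overlapping the protein-coding Gm43738 on the same strand). Fdps was at 149.7, 144 and 167 FPKM in WT and 51.7, 66.7 and 82.1 in KO. It was the highest of the enzymes in WT, and its mean fell 2.30-fold (log2 fold change -1.22, SE 0.17, adjusted p = 0.00126). Ggps1, which extends farnesyl to geranylgeranyl diphosphate and so leads away from sterols (overlapping Arid4b on the opposite strand), was at 11.7, 9.25 and 8.62 FPKM in WT and 11.2, 9.11 and 7.07 in KO. The groups overlapped and no difference was called (log2 fold change -0.12, 95% confidence interval -0.58 to 0.35, adjusted p = 0.604). Its interval reaches from a fall to a rise, so a small change in either direction was not detectable with 3 libraries a group.

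Of the 11 rows from squalene to cholesterol, 9 fell, 8 of them rows of 1 gene, and 2 were not called. Among all tested rows 36.7% were called lower. Fdft1, the squalene synthase that commits farnesyl diphosphate to sterols, was listed at 0, 29.5 and 30.9 FPKM across WT replicates 1, 2 and 3, and at 0 in every KO library (adjusted p = 0.0788). No fold is given, since WT replicate 1 and the KO libraries share the same listed 0 and the gene overlaps the protein-coding Ctsb on the opposite strand. Without WT replicate 1 the row was called lower (adjusted p = 3.24e-05; range over all alternatives 3.24e-05 to 0.204). That fit sets WT replicates 2 and 3 against listed 0s alone, which can be failed estimates, so no fall is read from it. Sqle, the squalene epoxidase and a rate-controlling step of the sterol branch (chromosome 15, 59315077 to 59331192), was at 54.8, 53.9 and 59.1 FPKM across WT replicates 1, 2 and 3 and, in the same order, 49.0, 54.1 and 61.2 FPKM across KO. The KO values spanned all WT values, with means of 55.9 ± 2.77 and 54.8 ± 6.09 FPKM (SD, n = 3 each; log2 fold change -0.035, 95% confidence interval -0.25 to 0.18, adjusted p = 0.746). The lower end of that interval is nearer to 0 than the estimate of each of the 13 enzyme rows that were called. Lss, the lanosterol synthase that acts directly on the product of Sqle, was at 13.0, 13.4 and 17.8 FPKM in WT and 4.96, 5.50 and 7.17 in KO, a 2.51-fold fall (log2 fold change -1.26, SE 0.17, adjusted p = 0.00118).

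Cyp51, the lanosterol demethylase (chromosome 5, 4081145 to 4104746, overlapping Akap9 on the opposite strand), was at 17.7, 17.9 and 21.2 FPKM across WT replicates 1, 2 and 3 and, in the same order, 3.96, 4.47 and 5.49 FPKM across KO. Its mean fell 4.08-fold, more than that of any other member with no library at 0 (log2 fold change -1.92, SE 0.13, adjusted p = 6.44e-05). The C4 demethylation complex removes the remaining methyl groups, and its 3 genes listed here all fell. Sc4mol (Msmo1), the methylsterol oxidase, was at 87.8, 82.5 and 93.9 FPKM in WT and 25.6, 29.5 and 43.3 in KO, 2.68-fold lower in KO (log2 fold change -1.44, SE 0.19, adjusted p = 0.00103). Nsdhl, the sterol dehydrogenase of the complex, was at 21.7, 32.5 and 23.5 FPKM in WT and 13.0, 14.5 and 17.6 in KO, with WT replicate 2 above the other WT libraries (1.72-fold; log2 fold change -0.75, SE 0.18, adjusted p = 0.0121). Hsd17b7, its ketoreductase, was the lowest of the enzymes in WT, at 4.48, 4.77 and 4.79 FPKM in WT and 2.32, 2.88 and 3.41 in KO (1.63-fold; log2 fold change -0.63, SE 0.13, adjusted p = 0.00578). All KO libraries of these genes lay below all WT libraries, as in 40.3% of all tested rows.

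Tm7sf2, a sterol reductase, shared its row with Vps51 and Zfpl1, so the row mixes 3 genes. It was at 83.7, 78.8 and 106 FPKM in WT and 37.9, 39.3 and 39.2 in KO (2.31-fold; log2 fold change -1.18, SE 0.11, adjusted p = 0.000249), and how much of that fall was Tm7sf2 cannot be told apart from the others. The enzymes that finish the ring system come last. Ebp, the sterol isomerase, was at 61.3, 61.5 and 62.4 FPKM in WT and 31.6, 30.0 and 34.0 in KO, a 1.94-fold fall with the smallest SE of the enzymes (log2 fold change -0.94, SE 0.052, adjusted p = 3.14e-05). Sc5d, the sterol desaturase (chromosome 9, 42251595 to 42264256), was at 31.2, 31.0 and 32.5 FPKM in WT and 10.8, 9.91 and 12.3 in KO, 2.86-fold lower (log2 fold change -1.48, SE 0.081, adjusted p = 3.14e-05). Dhcr7, the reductase that makes cholesterol from its direct precursor, was at 10.3, 10.2 and 10.7 FPKM in WT and 7.01, 8.56 and 8.01 in KO. Its fall was the smallest of the 13 enzyme rows called, 1.32-fold, with groups that did not overlap (log2 fold change -0.39, SE 0.079, adjusted p = 0.00618). Of the 16 enzyme rows together, 13 fell (12 without that of Tm7sf2) and 3 were not called, with called falls between 1.32-fold and 4.08-fold. The share called lower among all tested rows was 36.7%.

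**Figure D2:**
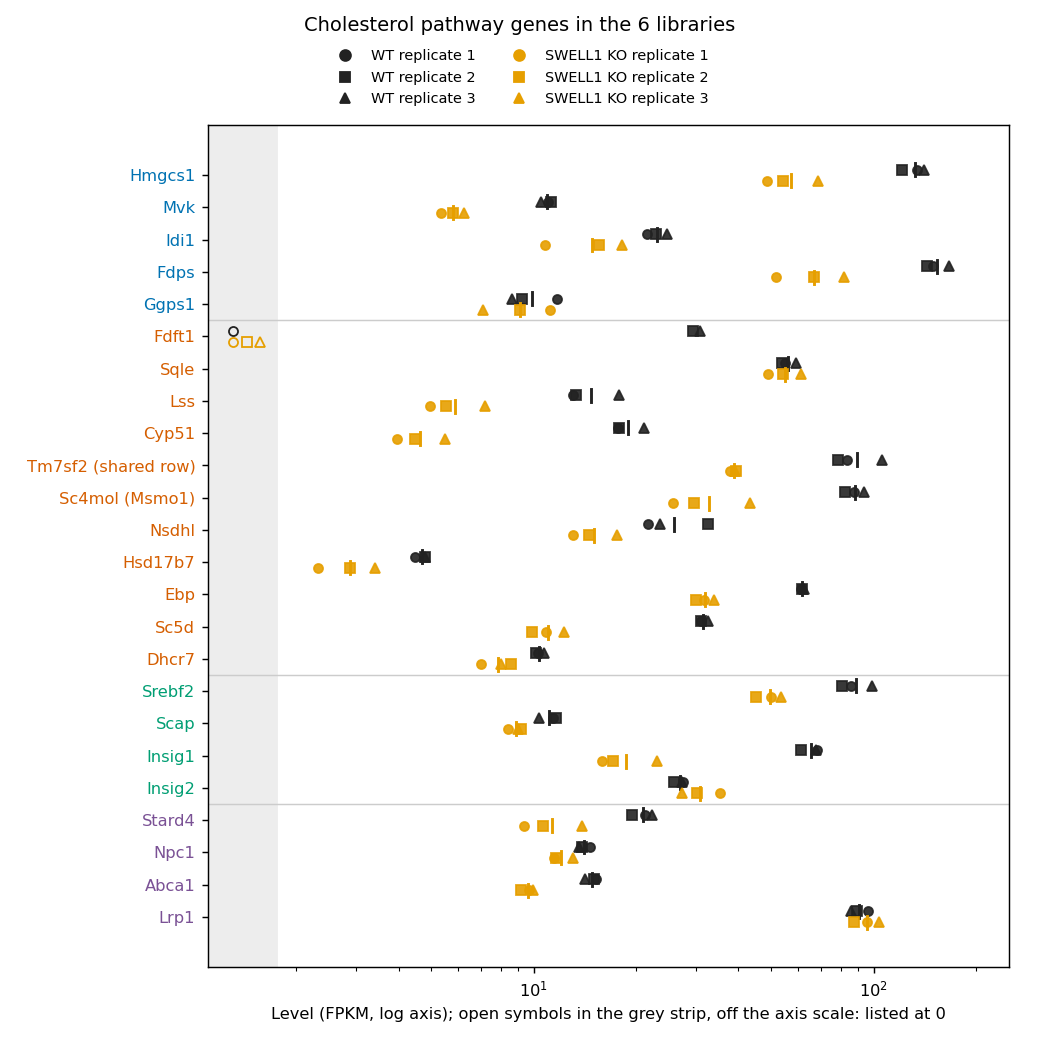
Level of each of the 24 genes in each library in FPKM on a log axis, in pathway order, with WT in black, SWELL1 KO in orange, a vertical line at each group mean where no library is at 0, and values listed at 0 as open symbols in the grey strip. WT and KO symbols stand apart for Hmgcs1, Fdps, Cyp51, Sc5d and Insig1 and overlap for Ggps1, Sqle, Insig2 and Lrp1; Fdft1 is listed at 0 in 4 libraries.

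Of the 4 SREBP control genes with a row, 3 fell and 1 was not called, against 36.7% of all tested rows called lower. The 3 that fell had every KO library below every WT library, as in 40.3% of all tested rows. Srebf2, which encodes SREBP2 (chromosome 15, 82147181 to 82205379), was at 85.7, 80.7 and 99.0 FPKM across WT replicates 1, 2 and 3 and, in the same order, 49.97, 45.0 and 53.3 FPKM across KO. The groups did not overlap and the mean fell 1.79-fold (log2 fold change -0.83, SE 0.097, adjusted p = 0.000589). Scap, the escort that carries SREBP to the Golgi, was at 11.4, 11.6 and 10.4 FPKM in WT and 8.42, 9.19 and 8.98 in KO, a fall of 1.25-fold with groups that did not overlap (log2 fold change -0.31, SE 0.063, adjusted p = 0.00618). Insig1, the retention protein whose own gene is a known SREBP target (chromosome 5, 28071363 to 28078662), was at 68.0, 61.0 and 67.8 FPKM across WT replicates 1, 2 and 3 and, in the same order, 15.9, 17.1 and 23.1 FPKM across KO. It fell 3.51-fold, with KO replicate 3 above the other KO libraries (log2 fold change -1.80, SE 0.14, adjusted p = 0.000126). Its relative Insig2, which also holds Scap in the endoplasmic reticulum, was at 27.4, 25.8 and 27.4 FPKM in WT and 35.3, 30.3 and 27.3 in KO. KO replicate 3 lay within the WT range and KO replicates 1 and 2 above it, and no difference was called (log2 fold change 0.19, 95% confidence interval -0.046 to 0.43, adjusted p = 0.128). Per length, Insig1 stood above Insig2 in each WT library and below it in each KO library. Insig2 was called higher under median-ratio scaling (adjusted p = 0.0494), under quantile normalization (adjusted p = 0.0274) and without KO replicate 3 (adjusted p = 0.0318; range over all alternatives 0.0274 to 0.269).

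Of 4 sterol traffic genes, 3 fell and 1 was not called, against 36.7% of all tested rows called lower. Stard4, a soluble carrier that moves sterol between membranes and is a known SREBP target, was at 21.3, 19.5 and 22.3 FPKM in WT and 9.33, 10.7 and 13.9 in KO, a 1.86-fold fall (log2 fold change -0.89, SE 0.15, adjusted p = 0.00249). Abca1, the pump that loads cholesterol onto lipoprotein particles outside the cell, was at 15.3, 15.0 and 14.2 FPKM in WT and 9.67, 9.19 and 9.92 in KO, 1.55-fold lower (log2 fold change -0.60, SE 0.052, adjusted p = 0.000163). Both had every KO library below every WT library, as in 40.3% of all tested rows. Npc1, which moves cholesterol out of lysosomes, was at 14.7, 13.9 and 13.6 FPKM in WT and 11.5, 11.7 and 13.0 in KO (1.17-fold; log2 fold change -0.22, SE 0.064, adjusted p = 0.0267). The Npc1 call was lost under both scalings, under the replicate block and in 4 of the 6 fits that left out a library, with adjusted p from 0.00932 to 0.138 over all alternatives. Lrp1, a large endocytic receptor of the lipoprotein receptor family, was at 96.1, 89.4 and 85.7 FPKM in WT and 95.4, 87.8 and 104 in KO, with overlapping groups (log2 fold change 0.079, 95% confidence interval -0.11 to 0.27, adjusted p = 0.391). Quantile normalization made Lrp1 a called rise of 0.29 on the log2 scale (adjusted p = 0.0221; range over all alternatives 0.0221 to 0.828).

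**Figure D3:**
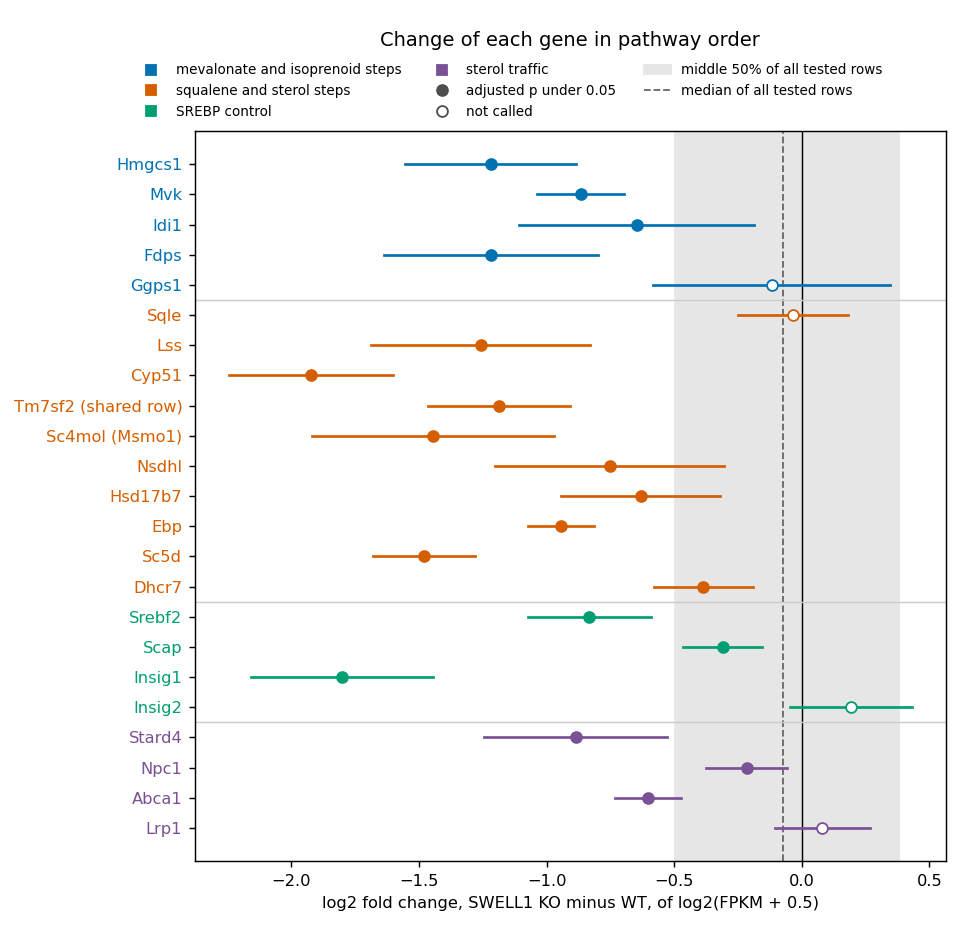
Log2 fold change of log2(FPKM + 0.5), SWELL1 KO minus WT, with its 95% confidence interval from limma for the 23 genes with no library at 0, in pathway order and coloured by role; filled points passed the threshold. The largest falls were those of Cyp51 (-1.92) and Insig1 (-1.80), and the grey band holds the middle 50% of all tested rows.

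Within the KO group most enzyme rows put the libraries in the same order. KO replicate 3 was the highest and KO replicate 1 the lowest of the KO libraries in 10 of the 15 enzyme rows with no library at 0, and in 18.9% of the 9911 tested rows with no library at 0. Sc4mol stood 1.69 times as high in KO replicate 3 as in KO replicate 1, Idi1 1.68 times, Fdps 1.59 times, Stard4 1.48 times, Insig1 1.46 times and Hmgcs1 1.42 times. The median of this ratio was 1.35 over the 15 enzyme rows and 0.993 over all those rows. Ggps1 and Insig2, which were not called lower in KO, went the other way, at 0.632 and 0.773. Sqle was also higher in KO replicate 3 than in KO replicate 1, at 1.25 times, although its group means did not differ beyond their spread. Among the WT libraries, replicate 3 was the highest in 12 of the 15 enzyme rows, against 32.0% of those rows, by smaller margins (median ratio of WT replicate 3 to WT replicate 1, 1.07). The row AC166252.2 held 23.7% of all FPKM in KO replicate 1, 16.7% in KO replicate 2 and 17.4% in KO replicate 3, and its part in this order was not tested.

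**Figure D4:**
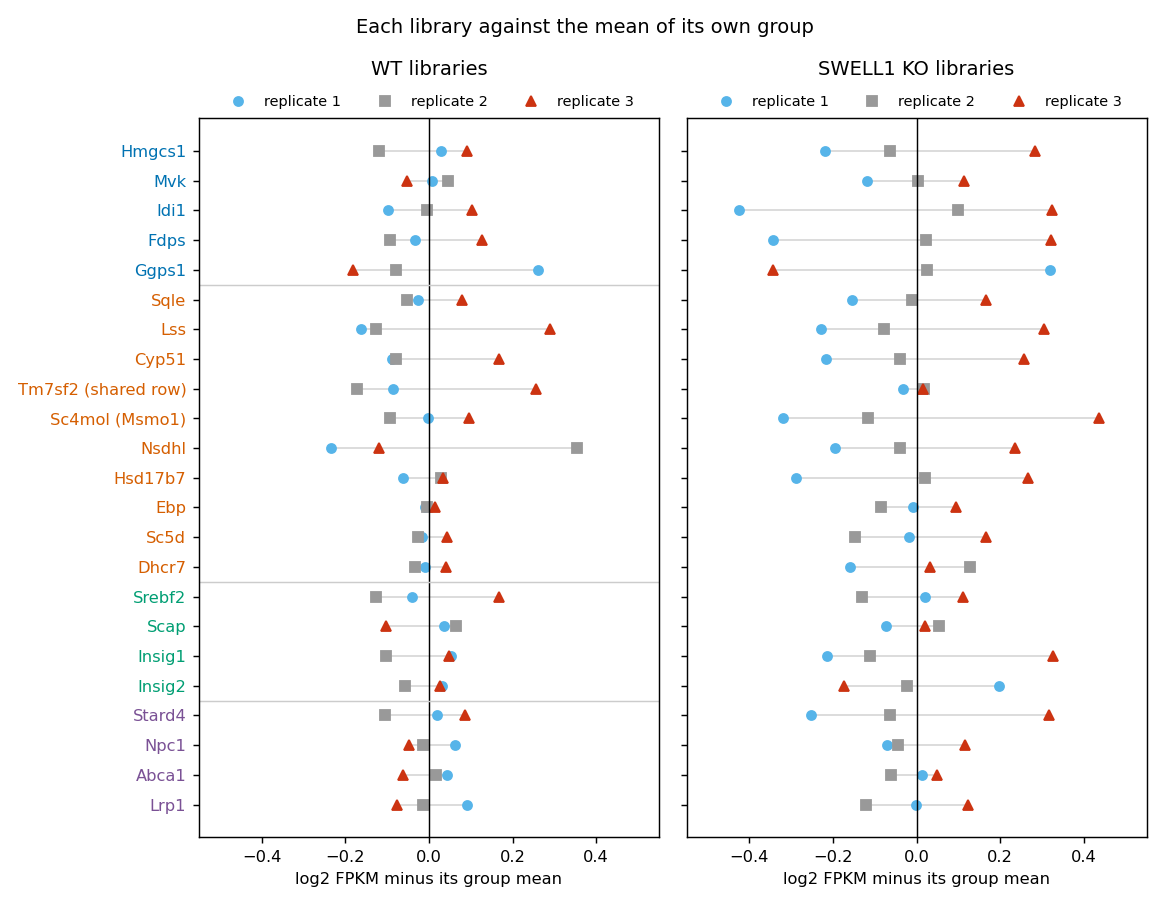
Log2 FPKM of each library minus the mean of its own group for the 23 genes with no library at 0, WT libraries on the left and SWELL1 KO libraries on the right. In the KO panel replicate 3 (triangles) is the highest for 18 of the 23 genes and replicate 1 (circles) the lowest for 16; Ggps1 and Insig2 show the reverse. Of the 9911 tested rows with no library at 0, KO replicate 3 was the highest in 34.0% and KO replicate 1 the lowest in 3223.

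Other genes of sterol and isoprenoid handling were taken as a list of 41 genes. A row free of other genes, apart from small RNAs and predicted genes, was found for 33, and 29 were tested. The row of Rabggtb also holds Snord45c, and that of Nr1h3, which was not tested, also holds Gm13783. Of the 29 tested, 14 fell, 6 rose and 9 were not called, against the 36.7% and 28.5% of all tested rows given above. Among them Abcg1 and Cyp7b1 averaged under 0.5 FPKM in KO, and Ubxn8 in WT, so each passed the filter through the other group. The lipoprotein receptors Vldlr, Lrp8 and Scarb1 fell: Vldlr from 24.1 ± 1.22 to 1.03 ± 0.0734 FPKM (SD, n = 3 each; adjusted p = 1.11e-06). Scarb1, the receptor for high-density lipoprotein, was at 95.8, 94.1 and 105 FPKM in WT and 21.0, 25.5 and 27.0 in KO, 4.02-fold lower (adjusted p = 2.54e-05). Lrp8 fell 3.42-fold (adjusted p = 0.000646). All 3 had every KO library below every WT library, as in 40.3% of all tested rows. Abcg1, a cholesterol pump and known target of the oxysterol receptors LXR, was at 4.90, 4.95 and 4.77 FPKM in WT and 0.288, 0.583 and 0.557 in KO (adjusted p = 3.54e-05). Nr1h2, which encodes LXR-beta, fell 1.79-fold from 48.0 ± 1.33 to 26.8 ± 1.37 FPKM (adjusted p = 4.19e-05), while Mylip, the ligase that degrades lipoprotein receptors and is itself a known LXR target, rose 1.69-fold from 7.63 ± 0.355 to 12.9 ± 0.612 FPKM (adjusted p = 0.000129). Cyp7b1, an oxysterol hydroxylase, was at 8.72, 8.20 and 6.65 FPKM in WT and 0, 0 and 0.0260 in KO (adjusted p = 5.29e-06).

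In the SREBP cleavage and degradation machinery, Mbtps1, the site-1 protease that starts the release of SREBP in the Golgi, was at 34.1, 35.5 and 34.1 FPKM in WT and 62.4, 61.5 and 60.7 in KO. It rose 1.78-fold (adjusted p = 1.27e-05), with groups that did not overlap, beside the fall of Srebf2 and Scap. Syvn1, a ubiquitin ligase of the endoplasmic reticulum, fell 2.65-fold from 30.4 ± 2.47 to 11.5 ± 0.898 FPKM (adjusted p = 4.38e-05). Ubxn8 was listed at 0 in all WT libraries and at 2.84, 2.71 and 2.56 FPKM in KO. Por, the reductase that feeds electrons to Cyp51 and Sqle, was at 50.1, 48.9 and 47.7 FPKM in WT and 36.5, 37.2 and 39.7 in KO, a smaller fall than that of Cyp51 (log2 fold change -0.37, adjusted p = 0.000741). Among sterol carriers and esterases, Osbp and Gramd1a fell 1.59-fold and 1.54-fold, and Nceh1 and Gramd1b rose 1.95-fold and 1.58-fold (adjusted p = 0.00212 or less for each). Lipa, the acid lipase that frees cholesterol in lysosomes, was at 38.4, 39.7 and 38.7 FPKM in WT and 38.6, 37.9 and 36.7 in KO (adjusted p = 0.33). Of 7 tested users of isoprenoids, 2 fell, against the 36.7% of all tested rows called lower, 0 rose (0 also at an unadjusted p under 0.05 in limma) and 5 were not called. Those that fell were Rabggta, a subunit of the enzyme that prenylates Rab proteins (1.27-fold, adjusted p = 0.00943), and Coq2, which joins the isoprenoid tail to the ubiquinone ring (1.23-fold, adjusted p = 0.00348). Icmt, which methylates prenylated proteins, was at 19.9, 19.3 and 19.6 FPKM in WT and 12.3, 0 and 13.0 in KO and was not called beside its 1 listed 0 (adjusted p = 0.19). The groups of the other 4 (Pdss2, Fnta, Pggt1b and Rabggtb) overlapped, with 95% confidence intervals for the log2 fold change that lay between -0.20 and 0.23.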

How the data were processed

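RNA sequencing of 6 libraries gave 1 deposited table with a value per gene row and library. Per the submitters' processing notes, the authors used TopHat, Cufflinks 2.02 and the build GRCm38; for their settings, annotation and use of strand, nothing is given in the sources used here. Reads of genes that overlap on opposite strands (Ctsb beside Fdft1, Akap9 beside Cyp51, Arid4b beside Ggps1, Rmc1 beside Npc1) cannot be told apart without strand. Strand would not separate reads of Fdps and Gm43738, which overlap on the same strand. The deposited values were taken as FPKM, since Cufflinks gives that unit and no header names it. The test covered the 10515 rows that averaged 0.5 FPKM or more. It was run on log2(FPKM + 0.5) in limma 3.58.1 (R 4.3.3) with a trended prior variance, two-sided, no further scaling, Benjamini-Hochberg adjustment over all tested rows and threshold 0.05. This scale understates changes of low genes. Fold changes are ratios of mean FPKM. Depth was estimated from the smallest values among 1243 genes with 1 annotated transcript of 2500 bases or longer (GENCODE M21). In each library the estimate rests on 42 to 65 of these genes, those at the most frequent implied depth. Pandas 2.3.3 and numpy 2.4.6 in Python 3.11.15 read the table and matplotlib 3.10.9 drew the figures. The fit was tested on simulated data with normal spread, in which far fewer rows changed than were called here. That test did not cover failed estimates listed at 0. Within groups, 26.3% to 32.2% of rows at 10 FPKM or more differed by over 10%, and no pair of libraries looked like a repeat.

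All members with a row are named; other pathway genes are named where they passed with at least a 1.5-fold change and no library at 0, and those named beyond that rule (Cyp7b1, Ubxn8, Por, Lipa and the users of isoprenoids) were chosen after their values were seen. A row stood for a list gene where its other names were small RNAs or predicted genes. Members and lists were chosen with earlier results of these data known. Alternatives were 2 pseudocounts, 2 filters, 2 scalings, a robust fit, a replicate block and leaving out each library.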

Additional observations from a re-analysis of the deposited data

How the results depend on the processing

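Of the 336 refits of single genes (24 genes under 14 alternatives), 322 kept the call and, where called, the direction; 9 lost a call, 5 gained a call and 0 reversed a called direction. The count of members called lower stayed between 17 and 19. The count called higher, 0 as reported, became 1 under median-ratio scaling (Insig2) and 2 under quantile normalization (Insig2 and Lrp1), and ranged from 0 to 1 when a library was left out (1, Insig2, without KO replicate 3). By role this was 1 SREBP control gene under either scaling, 0 to 1 when a library was left out, and 1 sterol traffic gene under quantile normalization. Median-ratio scaling moved the median of all tested rows from -0.073 to 0.0030. Npc1 lost its call under median-ratio scaling (adjusted p = 0.123), quantile normalization (0.138), the replicate block (0.0711) and without WT replicate 1 (0.0797), WT replicate 2 (0.0604), KO replicate 1 (0.0769) or KO replicate 2 (0.0824). The cause was not tested. The replicate block took the 6860 called rows to 6534 and changed no member call but that of Npc1. Same-numbered libraries did not deviate together (correlations over tested rows 0.0034, 0.012 and -0.093 for numbers 1, 2 and 3), so the numbers were not taken as pairs. Each KO or WT group has 3 libraries, which limits the intervals of genes that were not called.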
